A study of Homo sapiens with 36 samples.

Results

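Unedited (WT) cells of the human embryonic stem cell line H9 were followed from day 0 to day 3 of neuronal induction by NGN2, the protein encoded by NEUROG2. The 8 libraries described here, 4 per day, were chosen by their titles and are 8 of 36 in the series, which also holds cells with 1 or both copies of RAI1 mutated and a later time point, day 7. Total RNA was depleted of ribosomal RNA and sequenced, and the values are read counts per gene. The comparison asks which genes changed as the cells left pluripotency.

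Both groups carried the WT genotype and the same batch label, and the labels call their members biological replicates without saying whether they came from separate cultures, so p-values measure the spread between these samples, which may be technical. The protocol names mTeSR Plus on Geltrex for stem cell maintenance, with the ROCK inhibitor Y-27632 at plating, and, for differentiation, doxycycline in Neurobasal-A supplemented with the growth factors NT3 and GDNF and with CultureOne, B27 and GlutaMAX. The change of medium and the induction of NGN2 therefore cannot be told apart. The labels do not say how the doxycycline-dependent NGN2 construct was delivered or whether the line is a clone, and reads of the construct and of the cells' own NEUROG2 gene cannot be told apart. Every library, day 0 included, was labelled iNeuron, but the day 0 libraries held the stem cell markers POU5F1, NANOG and LIN28A. H9 is an established line with a single genetic background.

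Pluripotent stem cells are held in that state by a small circuit of transcription factors, among them OCT4 (encoded by POU5F1), SOX2 and NANOG, together with FGF and nodal signals. NGN2 is a proneural transcription factor of the basic helix-loop-helix class. In the developing nervous system such factors start neuronal differentiation, raise Notch ligands that act on neighbouring cells, switch on further neuronal transcription factors and are linked to withdrawal from the cell cycle.

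Library totals were 31.1 to 40.1 M counts at day 0 and 41.8 to 51.3 M at day 3. Log2 levels correlated across genes with r between 0.992 and 0.996 among day 0 libraries, between 0.980 and 0.991 among day 3 libraries and between 0.887 and 0.913 across the days, where genes are not independent replicates. WT day 0 replicate 2 stood apart from the other 3 day 0 libraries in several genes of matrix, adhesion and glucose uptake, and WT day 3 replicate 4 in several genes of pluripotency and of Notch and BMP signalling. Their values are given beside the results they touch. Counts of the day 3 libraries also stood in pairs, replicates 1 and 2 and replicates 3 and 4: the chi-square per degree of freedom over genes was 49.4 and 60.8 within these pairs and 158 to 198 across them, against 13.9 to 35.7 among day 0 libraries. This measure weighs abundant genes most, and the log2 correlations did not separate the same pairs. All 4 carry the same batch label, and no fit with the pairs as a term was made. Without the first library 12435 genes were called and without the second 12905.

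Levels below are CPM, counts relative to the library total after TMM scaling, as mean ± SD over 4 libraries, and differences are log2 values of day 3 minus day 0 with a standard error (SE). A gene was called when its adjusted p in edgeR's quasi-likelihood test, with Benjamini-Hochberg adjustment over all 22268 genes tested, was under 0.05. Under this rule 13351 genes were called, 60% of those tested: 6949 were higher at day 3 (31.2%) and 6402 lower (28.7%). The median over all genes tested was 0.07. Among the calls, 1095 genes rose and 952 fell by at least 3 log2 units, and 341 rose and 362 fell by at least 5. The 4 and 4 libraries did not overlap for 58% of genes tested. With so many genes called, a list with a share of called members near 60% stands at the background.

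**Figure D1:**
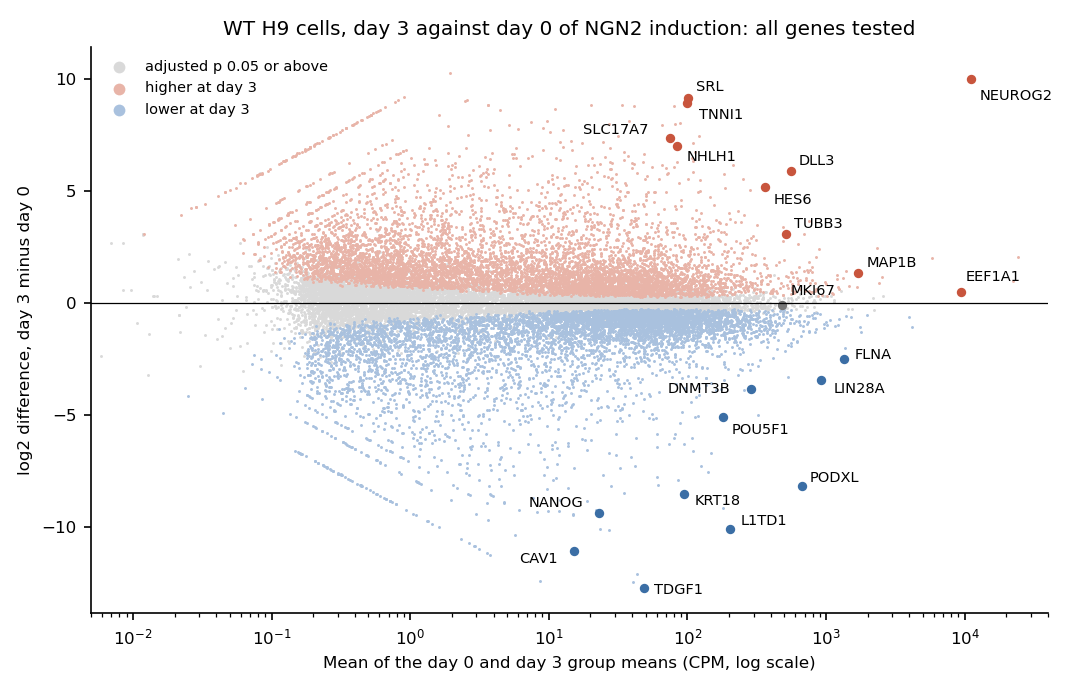
Log2 difference of day 3 minus day 0 (vertical axis) against the mean of the 2 group means in CPM (horizontal log axis) for the 22268 genes tested in WT cells. Red and blue points are genes higher and lower at day 3 at an adjusted p under 0.05, grey points the others, and labelled genes are drawn larger in the same colours (MKI67, not called, in grey). NEUROG2, at 10.02, lies far to the right of the other large rises, and TDGF1, at -12.73, is the lowest point labelled.

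NEUROG2 (chromosome 4, 112513516 to 112516172, minus strand, GRCh38) was counted in every library, which checks the induction. It stood at 27.8, 32.4, 14.6 and 10.8 CPM in day 0 replicates 1 to 4 and at 23474, 20131, 20087 and 25262 CPM in the day 3 replicates. It was therefore present at a low level before induction and rose in every day 3 library, with a difference of 10.02 (SE 0.45, edgeR adjusted p 7.67e-10). Per length of transcript, in TPM, it went from 8.09 ± 4.11 to 4190 ± 1248. At day 7 it stood at 63.7 CPM.

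After NEUROG2, the largest rises by ratio of group means were not neuronal marker genes but a mixed set. SRL, sarcalumenin, a calcium-binding protein of the sarcoplasmic reticulum, stood at 0.247, 0.328, 0.236 and 0.595 CPM at day 0 and at 194, 158, 215 and 241 CPM at day 3 (9.18, SE 0.30, edgeR adjusted p 8.65e-11). TNNI1, the troponin I of slow muscle, stood at 0.137 to 0.542 CPM and then at 103, 117, 291 and 277 CPM (8.95, SE 0.52), with replicates 3 and 4 the higher pair at day 3. UNC45B, a chaperone of muscle myosin, rose from 0.356 ± 0.12 to 161 ± 5.22 CPM (8.81, SE 0.44). These 3 genes are best known from striated muscle.

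Others of the 10 largest rises were GGT5, a gamma-glutamyltransferase (0.136 ± 0.139 to 66.9 ± 12.2 CPM, 8.86), ERFL, which overlaps ARHGEF1 (8 counts to 22.2 ± 4.53 CPM), ATP2B3, a plasma membrane calcium pump of neurons (0.265 ± 0.0622 to 75.1 ± 6.15 CPM, 8.13), and PPP1R14A and PPP1R14C, inhibitors of protein phosphatase 1 (to 177 ± 49.8 and 161 ± 24.6 CPM). The 4 and 4 libraries overlapped for none of them, as the rule that chose them required. Several were lower again at day 7, where GGT5 stood at 1.6 CPM, UNC45B at 9.39, PPP1R14C at 10.3 and TNNI1 at 22.6, while SRL stood at 113; day 7 was not tested here.

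The circuit of pluripotency was lower in every day 3 library. POU5F1 was counted at 355, 289, 327 and 434 CPM at day 0 and at 2.49, 2.81, 5.36 and 30.5 at day 3, a difference of -5.10 (SE 0.69, edgeR adjusted p 1.84e-05). Day 3 replicate 4 held several times more of it than the other 3 day 3 libraries, and without that library the difference was -6.63. NANOG, its partner factor, went from 45.9, 46, 39.2 and 53.8 CPM to 0.166, 0, 0.0724 and 0 CPM, 12 counts in all at day 3. The ratio of its group means was 775 with a counting interval of 443 to 1499 (exact 95% interval, counting error only). SOX2, which is shared by stem cells and neural progenitors, fell less: it stood at 215, 164, 190 and 192 CPM at day 0 and at 20, 26.9, 32.6 and 45 CPM at day 3 (-2.61, SE 0.26, edgeR adjusted p 1.01e-06). No day 3 library overlapped a day 0 library for any of the 3 factors.

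LIN28A, an RNA-binding protein that blocks maturation of let-7 microRNAs, fell from 1676 ± 158 to 154 ± 39 CPM (-3.45, SE 0.25). TDGF1, a co-receptor of nodal signalling, went from 113, 67.7, 91.5 and 116 CPM to 0 in 3 libraries and 0.0519 in the fourth, 2 counts in all. ZSCAN10, a zinc finger factor of stem cells, had 3 counts in all at day 3 against 87.3 ± 19 CPM before. L1TD1, an RNA-binding protein derived from a LINE-1 element, fell from 406 ± 93.1 to 0.382 ± 0.393 CPM (-10.11, SE 0.52). With NANOG these 3 were among the 10 largest falls by ratio of group means. Others in that set were RBM47, an RNA-binding protein, LIX1, IGFBP5, which binds insulin-like growth factors, and ANXA1 and CAV1, whose values follow with the matrix genes.

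Of the pluripotency list, 23 of 24 genes were tested, none was higher and 19 were lower, with a median of -3.45 beside 0.07 for all genes. NODAL itself, the ligand of nodal signalling, was low on both days, at 0.835 ± 0.148 and 1.03 ± 0.322 CPM, and was not called. The counts were the same, 0 and 19, without day 0 replicate 2 and without day 3 replicate 4. In bulk RNA a lower value from fewer cells of a type and one from less RNA per cell cannot be told apart. POU5F1, NANOG, EEF1A1, RPS3A, ACTB, HSPA8, HSP90AB1 and KRT18 have processed pseudogenes that share sequence with them, so their counts depend on how reads were shared out. Of the named genes 21 overlap another annotated gene.

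**Figure D2:**
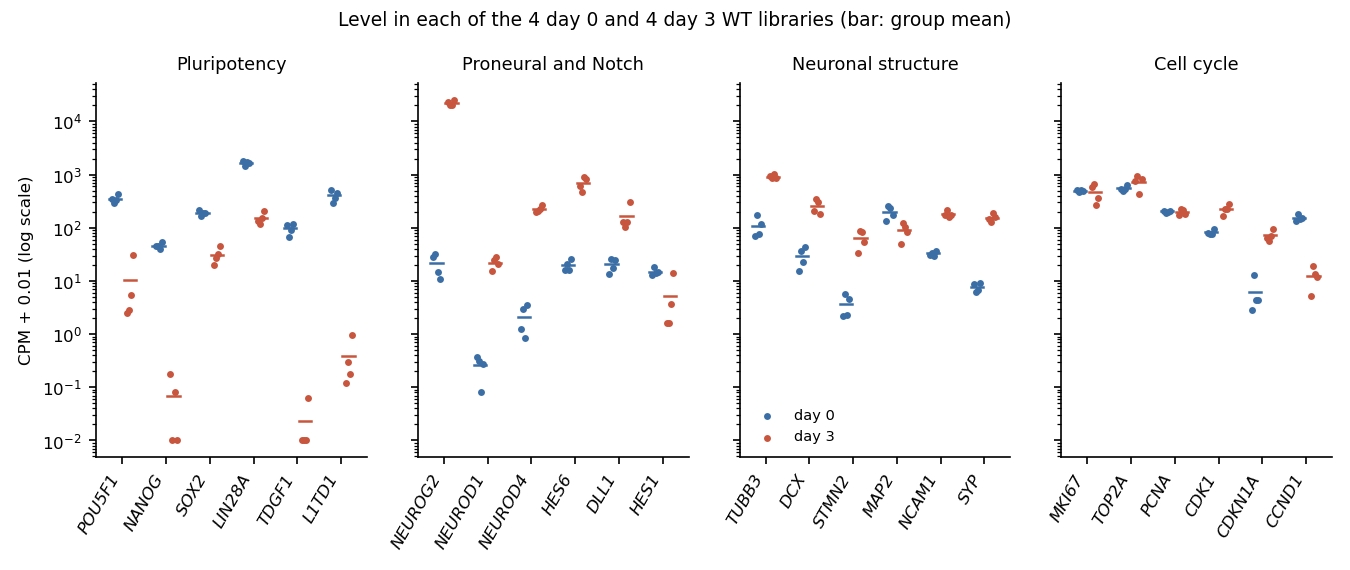
CPM + 0.01 on a log axis in each of the 4 day 0 (blue) and 4 day 3 (red) WT libraries for 24 genes in 4 groups; bars are group means and points at the foot of the axis are libraries with no count. The 4 day 3 points of POU5F1 lie below all day 0 points with 1 library, at 30.5 CPM, above the others, while the points of MKI67, TOP2A and PCNA overlap between the days.

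The long noncoding RNAs of stem cells fell with the protein-coding genes. ESRG, a transcript known from human stem cells, had 2 counts at day 3 against 81 ± 12 CPM at day 0, and LNCPRESS1 had 2 counts against 7.13 ± 0.604 CPM. MIR302CHG, the transcript that carries the hairpins of the miR-302 microRNAs and miR-367 (chromosome 4, 112646476 to 112650051, minus strand, GRCh38), stood at 180, 140, 146 and 214 CPM at day 0 and at 0.647, 0.731, 0.942 and 0.519 at day 3 (-7.90, SE 0.31, edgeR adjusted p 3.04e-10). It lies within LARP7, from which its reads could not be separated with certainty. Over the list 9 of 24 tested members were higher and 12 lower. Examples that rose, picked after their values were seen, were MALAT1 (277 to 1496 CPM, difference 2.43) and NEAT1 (21.3 to 232 CPM, difference 3.44), both nuclear transcripts of many cell types.

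The microRNAs encoded in MIR302CHG are shown because they are a defining feature of human pluripotent cells; the mature forms were not measured here. Sequences are from RefSeq (GRCh38.p14), 5′ to 3′, with the seed (bases 2 to 8) in capitals. All 5 lie inside the annotated transcript, and the 4 members of the miR-302 group share one seed, which miR-367 does not have.
hsa-miR-302a-3p: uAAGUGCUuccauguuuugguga
hsa-miR-302b-3p: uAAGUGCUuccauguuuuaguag
hsa-miR-302c-3p: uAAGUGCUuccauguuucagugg
hsa-miR-302d-3p: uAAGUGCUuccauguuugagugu
hsa-miR-367-3p: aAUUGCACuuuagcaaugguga

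The proneural list moved up: 19 of 25 tested members were higher and 1 lower, with a median of 2.83, or 11 and 5 with a median of 0.47 on the TPM scale. NEUROG2 itself, the induced gene, is among the 19. NHLH1, a helix-loop-helix factor of newborn neurons, stood at 1.35, 2.16, 0.896 and 0.744 CPM at day 0 and at 157, 138, 180 and 191 CPM at day 3 (7.00, SE 0.36, edgeR adjusted p 2e-09). NEUROD4, a factor downstream of proneural genes, rose from 2.13 ± 1.28 to 225 ± 32.8 CPM (6.73, SE 0.47). NEUROD1, of the same family, rose from 0.25 ± 0.125 to 22.2 ± 5.22 CPM (6.48, SE 0.32). HES6, which opposes the repressor HES1, rose from 15.8, 20.9, 16.1 and 25.5 CPM to 622, 476, 906 and 823 CPM (5.18, SE 0.28). The day 0 and day 3 libraries of all 4 genes did not overlap. At day 7 NEUROD1 stood at 456 CPM and NHLH1 at 372, above day 3, while HES6 stood at 177 and NEUROD4 at 166.

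The letters CAGATG, a form of the E-box that proneural factors are known to bind, were searched on both strands (CATCTG is the reverse complement) in the 250 bases before the annotated starts in RefSeq. No other motif was searched. Of the 19 proneural factors called higher, 14 had an entry, and 4 of these held the letters, or 28.6%, beside 14.6% of the 27305 genes with an entry. NEUROG2, the induced gene, is among the 14 and did not hold the letters. None of the 5 genes with an entry among the 10 largest rises held them, nor any of 6 members of the Notch list called higher, and 2 of the 7 with an entry among the 10 largest falls did. A gene with several starts was counted once if any of its windows held the letters. A match describes the sequence and is not a site.

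The 4 matches are shown with 12 bases on each side, 5′ to 3′ in the direction of the gene, with the searched letters in capitals (GRCh38.p14). The letters begin 210, 137, 138 and 55 bases before the start, in the order printed. The NHLH1 stretch lies outside annotated exons, while the other 3 overlap an exon annotated in GENCODE.
NHLH1 (chr1:160366849-160366878, plus strand): atgcatggagaaCAGATGtccctgctcccc
NHLH2 (chr1:115841246-115841275, minus strand): cccacactgtgaCAGATGtcaagtccaatt
NEUROD2 (chr17:39608041-39608070, minus strand): agtagagagtgaCAGATGgcggcgggtccc
ATOH8 (chr2:85753924-85753953, plus strand): gctaaacaaacaCAGATGgagcgcagcggg

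The Notch pathway moved in both directions. DLL3, a ligand that acts within the cell that makes it, stood at 17.8, 25.2, 10.8 and 20.5 CPM at day 0 and at 1058, 893, 1035 and 1378 CPM at day 3 (5.88, SE 0.42, edgeR adjusted p 4.11e-08). DLL1, a ligand that activates Notch on neighbouring cells, stood at 13.4, 26, 17.8 and 24.3 CPM and then at 130, 104, 128 and 303 CPM (3.03, SE 0.47, edgeR adjusted p 6.35e-05). The high library was again day 3 replicate 4, and without it the difference was 2.57. MFNG, a glycosyltransferase that modifies Notch receptors, rose from 2.57 ± 0.845 to 143 ± 46.4 CPM (5.81, SE 0.30).

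Receptors and targets of the pathway were measured as well. NOTCH1 stood at 193 ± 32 and 138 ± 31.4 CPM and was not called (-0.48, edgeR adjusted p 0.313). HES1, the classic Notch target and a repressor of proneural genes, stood at 12.9, 18.5, 14.1 and 14.5 CPM and then at 1.63, 1.6, 3.6 and 13.8 CPM. It was not called (-1.55, SE 0.70, edgeR adjusted p 0.0692), but without day 3 replicate 4, the library with 13.8 CPM, the difference was -2.73 with an edgeR adjusted p of 0.00201. Over the list 9 of 25 tested members were higher and 10 lower (median -0.35). Among those lower, picked after their values were seen, were the receptor NOTCH3 (301 to 20 CPM, difference -3.91), the ligand JAG1 (83.5 to 14 CPM, difference -2.58) and the target HES5 (2.58 to 0.107 CPM, difference -4.60). On the same list HES4, of the HES family, and HEYL, also picked after their values were seen, were called higher. Genes of this kind therefore moved in both directions.

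Genes of neural progenitors mostly fell: 11 of 18 tested members were lower and 3 higher (median -1.59). SOX1, an early neural factor, went from 15.9, 28, 36 and 30.3 CPM to 1.64, 2.66, 2.44 and 3.06 CPM (-3.49, SE 0.35, edgeR adjusted p 9.7e-07). SOX21, of the same family, had 10 counts at day 3 against 19.4 ± 3.73 CPM. PAX6, a progenitor factor of the forebrain and eye, rose from 0.265 ± 0.236 to a low 2.44 ± 0.63 CPM (3.21, SE 0.50). NES, the intermediate filament of progenitors, was high on both days, at 768 ± 222 and 937 ± 153 CPM, and was not called (0.29), a value that became -0.70 on the deposited TPM scale and -0.02 on TPM rescaled without small structural RNAs.

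Several neuronal structural genes were higher at day 3, and others were lower. TUBB3, the neuronal beta-tubulin, stood at 69.9, 175, 76.3 and 119 CPM at day 0 and at 958, 854, 1006 and 852 CPM at day 3 (3.06, SE 0.30, edgeR adjusted p 9.88e-07). DCX, which binds microtubules in migrating neurons, stood at 15.1, 35.9, 22.4 and 42.7 CPM and then at 206, 352, 301 and 182 CPM (3.16, SE 0.34). STMN2, a tubulin-binding protein of growing axons, rose from 3.65 ± 1.75 to 64.5 ± 24.8 CPM (4.14, SE 0.40). Day 0 replicates 2 and 4 held more TUBB3, DCX and STMN2 than replicates 1 and 3, and the days did not overlap for any of these. At day 7 the 3 genes stood at 3743, 2869 and 1432 CPM, so the day 3 values were early ones.

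MAP2, the dendritic microtubule protein used widely as a neuronal marker, moved the other way: it stood at 133, 255, 240 and 173 CPM at day 0 and at 49.9, 122, 104 and 84.8 CPM at day 3 (-1.15, SE 0.35, edgeR adjusted p 0.0107). It was at 418 CPM at day 7. MAP1B, a microtubule protein of growing axons, rose from 974 ± 148 to 2426 ± 619 CPM (1.32, SE 0.27, edgeR adjusted p 0.000634), but was not called on the TPM scale, where the difference was 0.37 (limma adjusted p 0.408). PRPH, peripherin, a filament of peripheral neurons, rose from 0.41 ± 0.0997 to 6.11 ± 3.95 CPM (3.89, SE 0.67), with 0.665 CPM in day 3 replicate 1 against 5.74 to 9.25 in the others. In all, 20 of 34 tested members were higher and 5 lower (median 1.36), against 11 and 10 on the TPM scale (median 0.28) and 20 and 7 on rescaled TPM (median 0.97). The others that fell, named after their values were seen, were UCHL1, DPYSL3, DCLK1 and DPYSL5.

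RNA-binding proteins that shape neuronal splicing and message stability changed in opposite directions. ELAVL2, of the neuronal Hu family, stood at 3.93, 6.64, 4.29 and 6.75 CPM at day 0 and at 162, 284, 322 and 202 CPM at day 3 (5.49, SE 0.29, edgeR adjusted p 2.53e-09). Its relatives ELAVL3 (1.83 ± 1.05 to 70.3 ± 6.86 CPM, 5.26) and ELAVL4 (0.36 ± 0.376 to 11.5 ± 7.39 CPM, 5.03) also rose. PTBP1, which represses neuronal exons in other cells, fell from 531 ± 23.2 to 220 ± 40.6 CPM (-1.27, SE 0.14). ESRP1, a splicing factor of epithelial cells, had 1 count left at day 3 against 1.65 ± 0.594 CPM, a ratio of 255 with a counting interval of 45.7 to 10053. Over the list 13 of 25 tested members were higher and 5 lower (median 0.70), a direction that turned to 6 higher and 10 lower on the TPM scale (median -0.21) and was 12 and 6 on rescaled TPM (median 0.38).

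Of the presynaptic list 20 of 33 tested members were higher and 3 lower (median 1.63), whereas 14 of 33 members of the postsynaptic list were higher and 14 lower (median -0.18). The difference between the lists was not tested, and on the TPM scale the counts were 12 and 6 for the first and 7 and 18 for the second. SYP, synaptophysin of synaptic vesicles, stood at 8.93, 6.1, 6.81 and 9.34 CPM at day 0 and at 148, 126, 192 and 158 CPM at day 3 (4.32, SE 0.22, edgeR adjusted p 2e-09). SNAP25, of the fusion complex, rose from 1.02 ± 0.329 to 29.5 ± 7.45 CPM (4.84, SE 0.25). SYT1, the calcium sensor of release, was at 40.5 ± 2.67 and 46.3 ± 7.74 CPM and was not called, and its difference of 0.19 became -0.83 on the TPM scale.

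On the receptor side, GRIA2, an AMPA receptor subunit, rose from 0.13 ± 0.106 to only 1.33 ± 1.17 CPM (3.26, SE 0.68, edgeR adjusted p 0.000833). On the TPM scale it was not called (0.08, limma adjusted p 0.732). GRIA2 stood at 0.0875 and 0.15 TPM, where the 1 added before the log shrinks any difference, so that fit cannot decide. CHRNA3, a nicotinic receptor subunit of autonomic and sensory ganglia, rose from 4.22 ± 1.18 to 36.3 ± 8.72 CPM (3.10, SE 0.36). GRIN2B, an NMDA receptor subunit, was measurable at day 0 and fell from 5.38, 9.31, 6.15 and 6.72 CPM to 0, 0.0887, 0.145 and 0.26 CPM (-5.86, SE 0.69, edgeR adjusted p 5.54e-06). KCND2, a potassium channel, fell alongside it from 5.31 ± 1.17 CPM to 10 counts. Among ion channels 15 of 32 tested members were higher and 7 lower (median 0.50), which turned to 9 and 12 on the TPM scale (median -0.03) and was 13 and 8 on rescaled TPM (median 0.22). SCN3A, a sodium channel of developing neurons, was at 0.565 ± 0.454 and 1.78 ± 1.15 CPM and was not called (1.65, edgeR adjusted p 0.0524).

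Transporters that mark a neuron's transmitter gave a mixed picture. SLC17A7, the vesicular glutamate transporter VGLUT1, stood at 0.797, 1.29, 0.448 and 1.13 CPM at day 0 and at 167, 127, 133 and 175 CPM at day 3 (7.36, SE 0.29, edgeR adjusted p 3.49e-10). SLC17A6, or VGLUT2, had 0.132 ± 0.177 and 0.213 ± 0.125 CPM, was not called, and stood at 72.5 CPM at day 7. CHAT, which makes acetylcholine, rose from 5 counts in all to 7.44 ± 1.14 CPM, a ratio of 222 with a counting interval of 95 to 683. The CHAT gene overlaps SLC18A3, the vesicular acetylcholine transporter, and their reads could be exchanged. GAD1, which makes GABA, stood at 0.224 ± 0.186 and 0.724 ± 0.607 CPM and was not called (1.63, edgeR adjusted p 0.072). It was called without day 0 replicate 2 (2.21, edgeR adjusted p 0.0402) and without day 3 replicate 1 (1.98, edgeR adjusted p 0.0289). Over the list 7 of 14 tested members were higher and 3 lower (median 1.25), and without day 3 replicate 4 these were 5 and 3. Neuropeptide and granule genes were split, 6 higher and 6 lower of 16 tested; NTS, neurotensin, was among those that fell (13.8 ± 2.44 to 0.339 ± 0.106 CPM, -5.34).

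Genes of sensory and peripheral neurons were mostly higher: 15 of 24 tested members rose and 5 fell (median 2.45), against 9 and 8 on the TPM scale (median 0.15) and 11 and 5 on rescaled TPM (median 0.53). POU4F1, a sensory neuron factor, rose from 0.298 ± 0.174 to 3.11 ± 3.18 CPM (3.39, SE 0.63), with 7.83 CPM in day 3 replicate 1 and 0.961 to 1.82 in the others. Without that library the difference was 2.36. ISL1, another factor of sensory and motor neurons, rose from 0.0932 ± 0.0788 to 1.55 ± 0.819 CPM (3.97, SE 0.59). On the TPM scale neither POU4F1 (0.29, limma adjusted p 0.254) nor ISL1 (0.27, limma adjusted p 0.194) was called. That fit cannot decide for them, because 1 is added to TPM before the log, which shrinks differences of low genes. POU4F1 stood at 0.0475 and 0.312 TPM and ISL1 at 0.05 and 0.268 TPM. The list medians on TPM are shrunk alike where members are low.

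Of 38 listed homeobox and regional genes only 27 were abundant enough to test, 4 were higher and 9 lower (median -0.13). Of the 27 genes 48.1% were called, beside 60% of all genes. Without day 0 replicate 2 there were 8 higher and 9 lower. ONECUT2 rose from 8.9, 25.2, 13.1 and 23.9 CPM to 80.9, 130, 116 and 88.7 CPM (2.55, SE 0.31, edgeR adjusted p 6.8e-06). POU3F2, also called BRN2, rose from 27.9 ± 15.1 to 70.2 ± 18.2 CPM (1.33, SE 0.32), though not on the TPM scale (0.35, limma adjusted p 0.314). GBX2, a factor of the midbrain and hindbrain border, fell from 87.7 ± 22.8 to 5.36 ± 0.746 CPM (-4.03, SE 0.33), and BCL11A from 35.6 ± 6.36 to 6.65 ± 1.41 CPM (-2.42, SE 0.31).

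Axon guidance genes fell slightly more often than they rose, with 20 of 45 tested members lower and 14 higher (median -0.50). UNC5D, a netrin receptor, went from 70.2, 60.4, 56.3 and 70.5 CPM to 0.0739, 0.31, 0.169 and 1.04 CPM (-7.40, SE 0.65, edgeR adjusted p 3.03e-07). DCC, the attractive netrin receptor, was at 3.87 ± 1.05 and 3.62 ± 1.2 CPM and was not called, and its difference of -0.11 became 0.09 without day 0 replicate 2 and 0.11 without day 3 replicate 1. CXCR4, a chemokine receptor of migrating cells, likewise stayed near 3 CPM on both days (-0.05, edgeR adjusted p 0.905) and changed sign between settings. ROBO3, of commissural axons, was higher (2.46 ± 0.242 to 7.51 ± 1.19 CPM, 1.61, edgeR adjusted p 0.0302). That call was lost without any of 5 single libraries, with edgeR adjusted p values up to 0.0626, and on the TPM scale. These 3 receptors stood at 200, 76.4 and 119 CPM at day 7.

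Markers of cell types outside the neuronal course were checked as well. TBXT, of primitive streak, and SOX17, of endoderm, were too rare to test, with 0 counts in all 4 day 3 libraries. CER1, a nodal antagonist of endoderm, was present at day 0 at 5.66, 26.8, 10.9 and 4.88 CPM and had 3 counts at day 3 (ratio of means 667, counting interval 228 to 3236). Of 21 mesendoderm genes 11 were tested, 4 were higher and 4 lower. SOX10, of neural crest and glia, stood near 1 CPM on both days (1.05 ± 0.136 and 0.85 ± 0.398) and was not called. The crest and glia list had 9 of 18 members higher and 5 lower (median 1.22), against 4 and 7 on the TPM scale and 8 and 5 on rescaled TPM. VTN was too rare to test on either day.

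**Figure D3:**
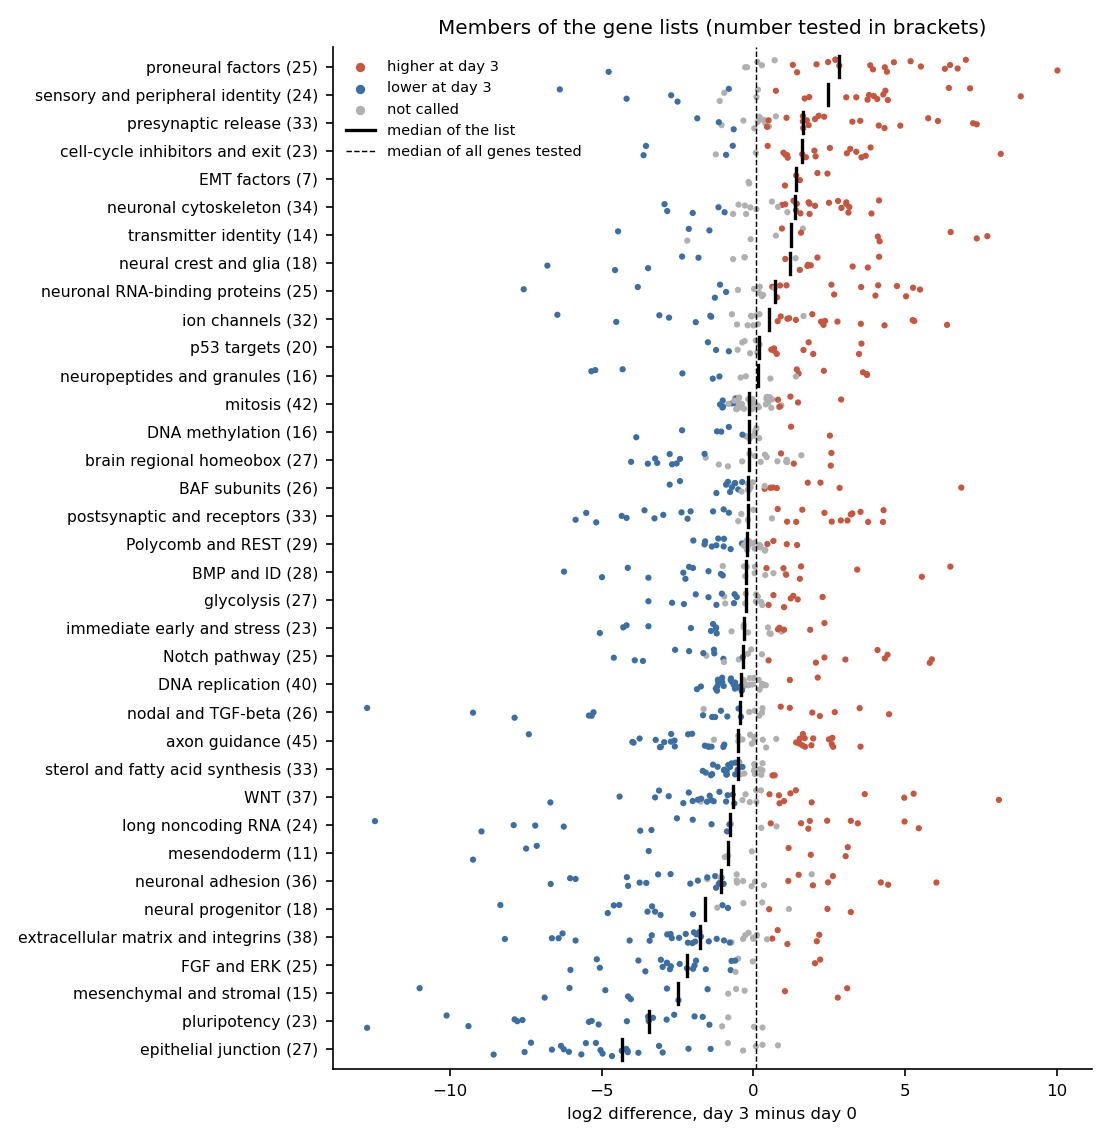
Log2 difference of day 3 minus day 0 for each tested member of 36 gene lists (points; red higher, blue lower, grey not called), with the list median as a black bar and the median of all 22268 genes as a dashed line. Proneural factors have the highest median, 2.83, and epithelial junction genes the lowest, -4.34; most lists hold members on both sides.

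Epithelial features were lost. Of the epithelial junction list 22 of 27 tested members were lower and none was higher, and its median of -4.34 was the lowest of the 36 lists. KRT18, a keratin of simple epithelia, stood at 192, 213, 170 and 179 CPM at day 0 and at 0.296, 0.177, 0.193 and 1.4 CPM at day 3 (-8.56, SE 0.53, edgeR adjusted p 1.16e-08). EPCAM, an epithelial adhesion protein, went from 37.5, 22.8, 28 and 34.4 CPM to 0.351, 0.288, 0.459 and 1.64 CPM (-5.52, SE 0.47). CDH1, E-cadherin, fell from 2.3 ± 0.356 CPM to 5 counts. PODXL, a sialoprotein of the stem cell surface, was also among the 6 largest falls by difference in mean CPM, from 1330 ± 68.2 to 4.6 ± 0.749 CPM (-8.18, SE 0.19). Day 3 replicate 4 was the highest of its group in KRT18 and EPCAM, as it was in POU5F1, and remained far below every day 0 library. The list counts, 0 and 22, were the same without it.

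The switch between cadherins was not a simple exchange. CDH2, N-cadherin, was already at 263, 373, 269 and 251 CPM at day 0 and fell to 147, 187, 125 and 127 CPM (-0.98, SE 0.16, edgeR adjusted p 0.000119). NCAM1, the neural cell adhesion molecule, rose from 33 ± 3.21 to 181 ± 23 CPM (2.46, SE 0.23), and NTM, a cell adhesion protein of neurons, fell from 17.2 ± 5.24 to 0.169 ± 0.0601 CPM (-6.68). Over the neuronal adhesion list 18 of 36 tested members were lower and 8 higher (median -1.07). ZEB1 and ZEB2, repressors of epithelial genes, both rose: ZEB1 from 34.3, 39.2, 36.9 and 36.7 CPM to 175, 219, 183 and 220 CPM (2.44, SE 0.13, edgeR adjusted p 2.52e-09) and ZEB2 from 92.7 ± 16.3 to 247 ± 31 CPM (1.41, SE 0.15). With SNAI1, SNAI2 and TWIST2 they made up the 5 of 7 tested genes of the epithelial to mesenchymal transition list that were higher. No member of that list was lower, although on the TPM scale 3 were higher and 2 lower, and on rescaled TPM 4 and 0.

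Matrix and stromal genes were lower as a group but carried the mark of a single library. Of the matrix and integrin list 24 of 38 tested members were lower and 5 higher (median -1.75), and of the stromal list 9 of 15 were lower and 3 higher (median -2.47). TNC, tenascin C, stood at 32.4, 125, 42.2 and 25.8 CPM at day 0 and at 0.129, 0.31, 0.0483 and 0.286 CPM at day 3 (-8.19, SE 0.85, edgeR adjusted p 1.62e-06). CAV1, caveolin of membrane pits, stood at 10.3, 97.7, 7.45 and 5.77 CPM and had 2 counts at day 3. Its day 0 mean reached the 10 CPM required for the 10 largest falls only through replicate 2. ANXA1, a phospholipid-binding annexin, stood at 26, 123, 16.5 and 8.42 CPM and had 12 counts.

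In each of these day 0 replicate 2 was the high library. Without it the differences were -7.44 for TNC, -9.13 for CAV1 and -7.90 for ANXA1, and all 3 were still called. COL1A1, a fibrillar collagen, was different: it stood at 192, 843, 203 and 125 CPM at day 0 and at 220, 257, 182 and 456 CPM at day 3, was not called (-0.29, edgeR adjusted p 0.616), and its difference became 0.68 (edgeR adjusted p 0.0593) without that library. POSTN, periostin, had no count at day 3 against 6.3 ± 2.12 CPM at day 0, at least 92.6-fold lower when day 3 is set to a floor of 3 counts per library. The summed level of the 18 stromal genes was 1953 CPM in day 0 replicate 2 and 799 to 972 in the other day 0 libraries, against 558 to 1061 at day 3. Its part in these results beyond the values without the library was not tested.

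FGF signalling genes fell almost throughout: 20 of 25 tested members were lower and 2 higher (median -2.19). FGF2, the ligand used to maintain human stem cells, went from 107, 51.2, 64.6 and 63.4 CPM to 9.53, 11, 10.6 and 11.4 CPM (-2.75, SE 0.25, edgeR adjusted p 4.49e-07). SPRY4, a feedback inhibitor induced by ERK, went from 129, 224, 184 and 179 CPM to 32.9, 37.5, 18.9 and 9.74 CPM (-2.85, SE 0.42). ETV4, a transcription factor induced by ERK, fell from 83.6 ± 7.76 to 1.28 ± 0.226 CPM (-6.03, SE 0.42), and EGR1, an immediate early gene of the same pathway, from 13.5 ± 7.83 to 0.405 ± 0.105 CPM (-5.06, SE 0.41). Ligand, feedback and target genes of the pathway therefore fell together. The receptors FGFR1 (477 to 72.3 CPM, difference -2.72) and FGFR2 (123 to 22.9 CPM, difference -2.43) were also lower, as examples picked after their values were seen. The wider list of immediate early and stress genes had 10 of 23 tested members lower and 5 higher (median -0.32). Of that list 65.2% were called, beside 60% of all genes.

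Of the nodal and TGF-beta list 13 of 26 tested members were lower and 7 higher (median -0.45). LEFTY1, a feedback inhibitor of nodal, fell from 7.69, 4.69, 3.82 and 4.13 CPM to 0.111, 0.111, 0.193 and 0.0779 CPM (-5.33, SE 0.44, edgeR adjusted p 1.51e-07). In the BMP list, 11 of 28 tested members were lower and 8 higher (median -0.24). ID3, an inhibitor of helix-loop-helix factors induced by BMP, went from 44.2, 89.2, 74.2 and 85 CPM to 1.15, 0.909, 2.17 and 5.11 CPM (-4.99, SE 0.61, edgeR adjusted p 7.38e-06). ID1, of the same family, stood at 13.3, 15.9, 10.2 and 19.2 CPM and then at 3.62, 2.79, 4.78 and 17.9 CPM, and was not called (-1.01, edgeR adjusted p 0.104). Day 3 replicate 4 was once more the high library, and without it ID1 was called (-1.97, edgeR adjusted p 0.000641). BMP3, a ligand that opposes BMP signalling, rose from 1.68, 1.27, 3.87 and 2.65 CPM to 399, 157, 198 and 96.1 CPM (6.49, SE 0.61, edgeR adjusted p 5.64e-07).

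WNT genes fell more often than they rose, with 19 of 37 tested members lower and 11 higher (median -0.68). SFRP2, a secreted WNT inhibitor, went from 305, 265, 293 and 301 CPM to 2.27, 1.51, 1.42 and 6.15 CPM (-6.69, SE 0.54, edgeR adjusted p 1.28e-07). FZD7, a WNT receptor prominent in stem cells, fell from 416 ± 51.4 to 44.1 ± 9.02 CPM (-3.24, SE 0.18). WNT11, a ligand of the pathway, rose from 8 counts in all to 8.55, 6.21, 12.1 and 32.8 CPM (ratio of means 288, counting interval 146 to 668). It was highest in day 3 replicate 4 and at 1.3 CPM at day 7.

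Mitotic transcripts were still counted at day 3, and most were not called. MKI67, which encodes the Ki-67 antigen, stood at 514, 477, 516 and 487 CPM at day 0 and at 574, 664, 272 and 369 CPM at day 3 (-0.09, SE 0.41, edgeR adjusted p 0.869). TOP2A, the topoisomerase of dividing cells, stood at 553 ± 62.3 and 736 ± 216 CPM (0.41, edgeR adjusted p 0.444), a difference that became -0.63 on the TPM scale. Day 3 replicates 3 and 4 held less MKI67 than replicates 1 and 2; without replicate 3 its difference was 0.11, without replicate 4 it was 0.02, and on the TPM scale it was called lower (-0.96, limma adjusted p 0.0318). At day 7 MKI67 stood at 24.9 CPM and TOP2A at 40.9. CDK1, the mitotic kinase, was higher, from 81.5 ± 8.18 to 225 ± 46.1 CPM (1.47, SE 0.53, edgeR adjusted p 0.026), but the call was lost without any of 4 single libraries (edgeR adjusted p up to 0.062) and on the TPM scale (0.41, limma adjusted p 0.297). Of 42 mitotic genes 30 were not called, 5 were higher and 7 lower (median -0.13), 28.6% called beside 60% of all genes. Without day 0 replicate 2 the higher and lower counts were 2 and 6. The TPM scale gave 1 higher and 27 lower with a median of -1.11, and rescaled TPM 2 and 15 with a median of -0.45, so whether mitotic genes fell by day 3 depends on the scale. CDC25B, a phosphatase that activates that kinase, rose from 66.3, 74.1, 71.9 and 63.5 CPM to 679, 517, 377 and 466 CPM (2.89, SE 0.18, edgeR adjusted p 9.19e-09).

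Replication genes were lower more often, with 23 of 40 tested members lower and 2 higher (median -0.40), 62.5% called beside 60% of all genes. On the TPM scale 37 were lower and 1 higher. CCNE1, cyclin E1 of S phase entry, went from 39.2 ± 2.48 to 27.4 ± 1.36 CPM (-0.52, SE 0.16, edgeR adjusted p 0.0137). PCNA, the sliding clamp of DNA polymerases, was at 211, 189, 202 and 209 CPM and then at 175, 223, 219 and 185 CPM and was not called (-0.02), although on the TPM scale it was called lower (-1.04, limma adjusted p 0.0015). E2F1, an activator of replication genes, rose from 37.7 ± 2.39 to 164 ± 12.2 CPM (2.12, SE 0.21, edgeR adjusted p 8.34e-07). All 6 subunits of the MCM helicase, MCM2 to MCM7, were lower, as examples picked after their values were seen, and MCM4 went from 455 to 198 CPM (-1.20).

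Inhibitors of the cell cycle and genes linked to its exit rose together: 17 of 23 tested members were higher and 4 lower (median 1.61). CDKN1A, or p21, stood at 2.83, 12.8, 4.31 and 4.34 CPM at day 0 and at 64.7, 57.4, 70.9 and 94.5 CPM at day 3 (3.56, SE 0.45, edgeR adjusted p 9.97e-06), and without day 0 replicate 2, the high library, the difference was 4.22. CDKN1C, or p57, rose from 11.6 ± 3.86 to 46.7 ± 16.1 CPM (2.01, SE 0.36). CDKN2C, or p18, rose from 10 counts in all to 25.3, 22.5, 18.2 and 10.7 CPM (ratio of means 293, counting interval 159 to 611). GADD45G, a growth arrest gene, rose from 2.22 ± 0.597 to 28.8 ± 7.97 CPM (3.70, SE 0.26), and GADD45A from 4.91 ± 2.02 to 28.2 ± 4.22 CPM (2.52, SE 0.28). CCND1, cyclin D1, fell from 135, 182, 146 and 151 CPM to 5.3, 19.2, 13.4 and 12 CPM (-3.62, SE 0.54, edgeR adjusted p 5.02e-05). On the TPM scale the counts were 11 and 5. The p53 target list, which shares CDKN1A, had 9 of 20 tested members higher and 3 lower (median 0.20), 60% called, as over all genes. On the TPM scale 3 of its members were higher and 9 lower, and on rescaled TPM 6 and 6.

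**Figure D4:**
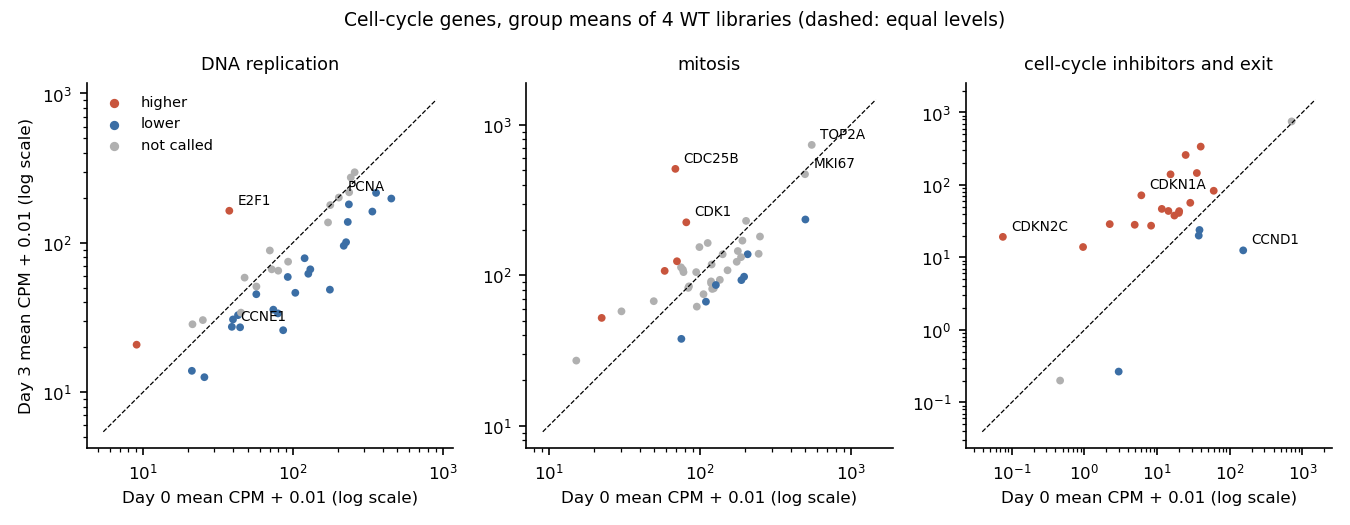
Group mean CPM + 0.01 at day 3 (vertical log axis) against day 0 (horizontal log axis) for tested genes of DNA replication, mitosis, and cell-cycle inhibition and exit in WT cells; red points were higher, blue lower, grey not called, and the dashed line marks equal levels. Most replication genes lie on or just below the line, most mitotic genes around it, and most inhibitors above it, with CDKN2C far to the left and CCND1 below.

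DNMT3B, a de novo DNA methyltransferase abundant in stem cells, went from 556, 486, 511 and 614 CPM to 37.3, 39.1, 29.3 and 43.3 CPM (-3.86, SE 0.25, edgeR adjusted p 1.48e-08). TET1, which oxidises methylated cytosine, fell from 188 ± 6.06 to 81.6 ± 5.93 CPM (-1.20, SE 0.10). Of 16 tested genes of DNA methylation 6 were lower and 2 higher (median -0.13), 50% called beside 60% of all genes, and on the TPM scale 12 were lower and 1 higher (median -0.94), or 8 and 2 on rescaled TPM. JARID2, a partner of Polycomb repressive complex 2, fell from 226 ± 22 to 57.4 ± 10.1 CPM (-1.98, SE 0.15), while EZH2, the catalytic subunit of that complex, stood at 107 ± 9.69 and 110 ± 15.9 CPM and was not called. The EZH2 difference of 0.04 became -0.01 with DESeq2 size factors and -0.95 on the TPM scale. REST, which silences neuronal genes in other cells, went from 126, 113, 113 and 105 CPM to 67.6, 62.1, 48 and 55.5 CPM (-0.97, SE 0.20, edgeR adjusted p 0.000769). The 4 and 4 libraries did not overlap, and REST was still counted in every day 3 library. Over the Polycomb and REST list 10 of 29 tested members were lower and 4 higher (median -0.20), 48.3% called beside 60% of all genes. The TPM scale gave 23 lower and 0 higher for that list (median -1.02) and rescaled TPM 17 and 2 (median -0.48).

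The BAF chromatin remodelling complex exchanges subunits as progenitors become neurons. ACTL6B, the neuronal subunit, rose from 0.11, 0.305, 0.0707 and 0.119 CPM to 22.2, 16.2, 21.6 and 12.3 CPM (6.85, SE 0.40, edgeR adjusted p 6e-09). ACTL6A, its counterpart in dividing cells, fell from 73.5 ± 2.91 to 48.5 ± 7.9 CPM (-0.60, SE 0.13, edgeR adjusted p 0.00148). Both transcripts were therefore counted at day 3. Of 26 tested subunits 11 were lower and 8 higher (median -0.18), against 19 and 2 on the TPM scale (median -0.99) and 15 and 5 on rescaled TPM (median -0.38).

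The 2 glucose transporters measured in detail and several enzymes of lipid synthesis were lower at day 3. SLC2A1, the glucose transporter GLUT1, stood at 305, 437, 309 and 293 CPM at day 0 and at 38.1, 29.6, 29.5 and 24.7 CPM at day 3 (-3.46, SE 0.19, edgeR adjusted p 3.97e-09). SLC2A3, or GLUT3, stood at 755, 1039, 768 and 773 CPM and then at 217, 274, 198 and 204 CPM (-1.90, SE 0.17). HK2, hexokinase 2, fell from 112 ± 14.9 to 22.9 ± 3.58 CPM (-2.29, SE 0.19). Day 0 replicate 2 was the high library for both transporters, and without it the differences were -3.32 and -1.79. LDHA, lactate dehydrogenase A, was at 319 ± 44.8 and 268 ± 18 CPM and was not called (-0.25), but was called lower on the TPM scale (-1.26, limma adjusted p 0.000676). Of the glycolysis list 10 of 27 tested members were lower and 7 higher (median -0.25), 63% called beside 60% of all genes. On the TPM scale 20 were lower and 1 higher (median -0.91), and on rescaled TPM 13 and 5 (median -0.28), so how much of the pathway fell depends on the scale.

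In sterol and fatty acid synthesis 18 of 33 tested members were lower and 2 higher (median -0.52), 60.6% called beside 60% of all genes. On the TPM scale 31 were lower and 0 higher (median -1.47), and on rescaled TPM 20 and 0 (median -0.80). HMGCS1, an early enzyme of cholesterol synthesis, went from 400, 431, 410 and 480 CPM to 181, 161, 143 and 95.5 CPM (-1.57, SE 0.19, edgeR adjusted p 6.67e-06). FASN, fatty acid synthase, fell from 1168 ± 63 to 516 ± 127 CPM (-1.18, SE 0.19), SCD, a desaturase, from 1337 ± 77.1 to 786 ± 155 CPM (-0.77, SE 0.16), and TM7SF2, a sterol reductase, from 49.1 ± 5.98 to 15.4 ± 4.4 CPM (-1.67, SE 0.32).

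By difference in mean CPM, the 6 largest rises and 6 largest falls included genes of translation, chaperones and the cytoskeleton. EEF1A1, the elongation factor that delivers transfer RNA, rose from 7833 ± 224 to 11044 ± 1894 CPM (0.50, SE 0.17, edgeR adjusted p 0.023), but its difference was -0.53 on the TPM scale. The call was lost without day 3 replicate 4 (edgeR adjusted p 0.0764) and without day 0 replicates 1, 3 or 4. EEF2, which moves the ribosome along, rose from 1674 ± 52.5 to 3123 ± 530 CPM (0.90, SE 0.15), with -0.33 on the TPM scale, and RPS3A, a ribosomal protein, from 754 ± 62.7 to 2029 ± 767 CPM (1.43, SE 0.28). IGFBPL1, a secreted protein of the IGF-binding family, stood at 72.3, 172, 108 and 92.1 CPM and then at 1329, 1626, 1157 and 1457 CPM (3.65, SE 0.29, edgeR adjusted p 1.21e-07). Among the 6 largest falls in level, beside LIN28A and PODXL described above, were ACTB, cytoplasmic actin (5649 ± 547 to 2661 ± 715 CPM, -1.09), FLNA, an actin crosslinker (2303 ± 249 to 405 ± 81.2 CPM, -2.51), and the chaperones HSPA8 (2551 ± 251 to 1028 ± 34.1 CPM, -1.31) and HSP90AB1 (2389 ± 25.5 to 1143 ± 204 CPM, -1.06).

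The make-up of the libraries moved with the day, which touches every comparison of levels. The small structural RNAs RMRP, RPPH1, RN7SK, RN7SL2 and RN7SL1 together took 4.51, 5.45, 5.28 and 6.42% of counts at day 0 and 10.4, 8.99, 19.6 and 18.1% at day 3 (exact two-sided permutation p 0.0286, adjusted over 4 shares 0.0381). The 83 cytosolic ribosomal protein genes rose from 3.32 ± 0.0934 to 5.16 ± 0.906% and the 13 mitochondrially encoded genes fell from 1.34 ± 0.33 to 0.757 ± 0.051% (each exact permutation p 0.0286, adjusted 0.0381, the smallest p that 4 against 4 can give being 0.0286). By gene, 56 of 81 tested ribosomal protein genes were higher and 2 lower (median 0.65). That direction turned to 6 higher and 34 lower on the TPM scale (median -0.35). On rescaled TPM the counts were 32 and 5 (median 0.34). Of 13 mitochondrial genes 11 were lower and none higher (median -0.72). Only 4 were called lower without day 0 replicate 1, the library with the largest mitochondrial share (1.78%). The fit of all 36 libraries called 2 lower, as did the fold threshold of 1.5. On TPM and on rescaled TPM all 13 were lower. Replication-dependent histone genes stood at 0.898 ± 0.105 and 1.58 ± 0.514% (exact permutation p 0.114), with day 3 replicate 4, at 0.837%, below the other day 3 libraries. By gene, 29 of 64 tested histone genes were higher and 6 lower (median 0.61), beside 31.2% and 28.7% of all genes. Without day 3 replicate 4 the counts were 40 and 6. They turned to 5 and 19 on the TPM scale (median -0.51) and were 13 and 9 on rescaled TPM (median 0.18). Histone messages lack a poly(A) tail and are measurable because ribosomal RNA was depleted instead.

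**Figure D5:**
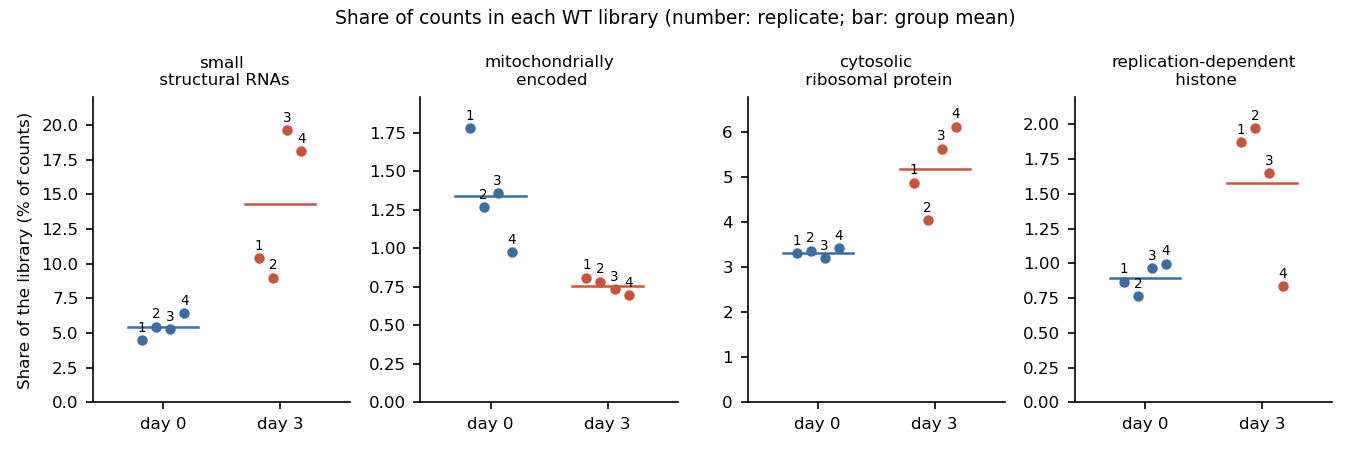
Share of a library's counts, in percent, taken by 4 sets of genes in each WT library at day 0 (blue) and day 3 (red); numbers mark the replicate and bars the group mean. For small structural RNAs all day 3 points lie above all day 0 points, with replicates 3 and 4 at 19.6 and 18.1% and replicates 1 and 2 at 10.4 and 8.99%; histone shares overlap through day 3 replicate 4.

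On the deposited TPM scale, where each library is fixed to one total and short RNAs weigh heavily, the median over all genes was -0.38 and 14.7% of calls were higher, against 52% in edgeR with TMM. Rescaled without the small structural RNAs the median was -0.14 and 36.7% of calls were higher. Falls are therefore more numerous, and rises fewer, if TPM is taken as the scale, and changes within about that shift of 0 have no fixed direction. By biotype, 4454 of 15274 tested protein-coding genes were higher and 5517 lower (median -0.12), while 466 of 1248 lincRNAs were higher and 219 lower (median 0.47) and 618 of 1705 antisense genes higher and 197 lower (median 0.46). The use of strand in counting was not given in the sources used here, so antisense genes and their partners cannot be told apart.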

How the data were processed

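Ribosomal-RNA-depleted total RNA of 36 libraries was sequenced; 8 WT libraries, 4 each of day 0 and day 3, are compared here. Per the submitters' processing notes, the tools named are cutadapt 4.8, FastQC 0.11.8, MultiQC 1.20, STAR 2.7.8a and RSEM 1.3.3, with genome build GRCh38; the annotation and the use of strand are not given in the sources used here. The expected count values deposited by the authors, the estimated counts of RSEM per gene, are whole numbers in the table and were used as deposited. The authors' deposited TPM values, which are scaled by transcript length to a fixed total, were used for levels per length and in alternatives; FPKM values were not used. Of 62710 genes 58274 (92.9%) matched GENCODE release 29, which gave positions and biotypes. Another 4 reporter features, at most 0.0171% of a library, were left out.

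Genes were filtered with filterByExpr and fitted with edgeR 4.0.16 (R 4.3.3) by quasi-likelihood over the 12 WT libraries of days 0, 3 and 7, with TMM factors of 0.849 to 1.1 and Benjamini-Hochberg adjustment over 22268 genes at a threshold of 0.05. Differences on the TPM scale are from limma 3.58.1 on log2(TPM + 1), which understates changes of low genes. Ratios against groups with few counts carry exact 95% intervals, which cover counting error only, and a group at 0 was set to a floor of 3 counts per library. Library shares were compared by exact two-sided permutation over samples (scipy 1.17.1). Alternatives were DESeq2 1.42.0, its size factors, library size alone, no filter, a fold threshold of 1.5, the 8 or all 36 libraries, a replicate block, TPM with a pseudocount of 1 or 0.1, and each library left out; rescaled TPM and a fit without the small structural RNAs were added after the data were seen.

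Tested on simulated counts (21705 genes), edgeR recovered 61% of 2-fold and 96% of 4-fold changes, with 4.85% of calls false. Whether these rates hold for the real counts, where 60% of genes were called, was not tested. The 36 gene lists (998 genes, 920 tested) and the comparison itself were chosen with earlier results of these data known. Genes were named by rule: the 10 largest rises and falls by ratio of mean CPM among called protein-coding genes with at least 10 CPM in the higher group and no overlap, the 6 largest by difference in CPM, preset marker genes of each list, and of each list the further called member with the largest difference and at least 5 CPM. Other names are said to have been picked after their values were seen. Some genes that the rule names are not reported here.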

Additional observations from a re-analysis of the deposited data

Results flagged for a closer look

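Single libraries lay far from the other 3 of their group for 16 of 220 groups of values tested (named genes with a mean of at least 1 CPM, and library shares), where chance alone gives about 1 in 20, or 11. WT day 0 replicate 2 accounted for 8 of these, all high, and all in adhesion, matrix, glucose uptake or cell-cycle inhibitor genes: ANXA1 at 123 CPM, CAV1 at 97.7, COL1A1 at 843, CDH2 at 373, SLC2A3 at 1039, SLC2A1 at 437, CDKN1A at 12.8 and TNC at 125 CPM. WT day 3 replicate 4 was high in POU5F1 (30.5 CPM), DLL1 (303), HES1 (13.8) and ID1 (17.9). WT day 3 replicate 1 was high in POU4F1 (7.83 CPM) and low in LDHA (241). WT day 0 replicate 1 was low in GBX2 (53.7 CPM) and high in NTS (17.4). The values without these libraries are given in the report where they bear on a result.

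The change from day 0 to day 3 differed between RAI1-/- (KO) and WT cells, by the edgeR interaction test over 24764 genes with Benjamini-Hochberg adjustment, for 32 of 135 named genes tested, or 23.7%, beside 8.55% of all genes. Both contrasts use the WT libraries described above. Many named genes were chosen for large differences and a minimum level in those libraries. The share here, and that in RAI1+/- cells below, therefore cannot be read against the share of all genes. Values are the KO change minus the WT change on the log2 scale, and 24 of the 32 were positive. NEUROG2 gave 2.19 although its mean level at day 3 was lower in KO cells (8945 CPM, against 22332 in WT). The larger log change rests on the day 0 level, 1.87 CPM in KO and 21.4 in WT cells. Among proneural factors the differences were 4.38 for NEUROD1, 2.58 for NEUROD4 and 3.14 for NHLH1. Notch genes gave -2.38 for DLL1, 1.70 for DLL3 and -5.09 for HES1. Structural and RNA-binding genes of neurons gave 1.41 for MAP1B, 2.92 for DCX, 2.28 for MAP2, 2.70 for STMN2, 3.51 for PRPH, 3.01 for ELAVL3 and 3.03 for ELAVL4. Synaptic, channel, guidance and adhesion genes gave 1.80 for SYT1, 3.89 for SCN3A, 5.05 for SLC17A6, 2.15 for SLC17A7, 4.57 for DCC and 1.75 for NCAM1. Identity factors gave 4.14 for POU4F1 and 3.28 for ONECUT2.

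The remaining differences in KO cells were -1.61 for PCNA, -1.53 for CCNE1, -1.39 for CDC25B, -2.05 for REST, -3.71 for KRT18, -8.65 for BMP3, 1.69 for PODXL, 1.18 for ZEB1, 0.92 for JARID2 and 1.48 for TM7SF2. In RAI1+/- (HET) cells 3 of 135 named genes differed, 2.22% beside 0.271% of all genes: ELAVL3 by 2.55, DCC by 2.50 and BMP3 by -11.29. The part of the NEUROG2 level in these differences was not tested.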

How the results depend on the processing

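The count of 13351 changed genes ranged from 12352 to 13458 with 1 library left out, and was 8693 with a fold threshold of 1.5. Replicate numbers did not pair the libraries (correlations of deviations 0.001, 0.047, -0.070 and 0.093); with the replicate block 12873 genes were called and CXCR4 became 0.05. The 11 lists with more higher than lower calls became 7 with TPM + 0.1 and 7 with TPM + 1. In that order of pseudocount, differences that changed sign were -0.53 and -0.53 for EEF1A1, -0.33 and -0.33 for EEF2, -0.71 and -0.70 for NES (-0.02 with rescaled TPM), -0.95 and -0.83 for SYT1 (-0.26 rescaled), -0.64 and -0.63 for TOP2A, -0.52 and -0.15 for NODAL (-0.02 rescaled), -0.06 and -0.01 for SLC17A6, and -0.99 and -0.95 for EZH2 (-0.30 rescaled). EZH2 was also -0.01 with DESeq2 and with its size factors and -0.06 by library size alone, and PCNA was 0.00 with the 8 libraries alone. With 1 library left out, ranges that crossed 0 were -0.27 to 0.11 for DCC, -0.28 to 0.37 for CXCR4, -0.63 to 0.68 for COL1A1, -0.08 to 0.05 for PCNA, -0.30 to 0.11 for MKI67 and -0.05 to 0.10 for EZH2. Shares differed by 7.08 to 10.6 percentage points for small structural RNAs, -0.709 to -0.442 for mitochondrial genes and 1.52 to 2.22 for ribosomal protein genes, where 3 against 4 cannot give a p below 0.0571. The cause of these shifts was not tested. Depth limits genes near 3 counts per library, or 0.0782 CPM at day 0 and 0.0681 at day 3.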

Other observations

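Because SRL, TNNI1 and UNC45B were among the largest rises, genes of striated muscle were listed after those values were seen, so the counts below describe and test nothing. Of 64 genes 45 were abundant enough to test: 26 were higher at day 3 and 10 were lower. Over all genes tested 31.2% were higher and 28.7% lower. The median difference was 1.41, beside 0.07 for all genes. The 26 include SRL, TNNI1 and UNC45B, the genes that prompted the list. At day 3, 21 of them stood at 5 CPM or more. The genes named next were picked among those that rose. RYR1, the calcium release channel of skeletal muscle, went from a mean of 25.2 to 311 CPM, ATP2A1, its calcium pump, from 1.12 to 40.2, and CDH15, a muscle cadherin, from 0.531 to 38.1. The muscle acetylcholine receptor subunits CHRNA1 (0.445 to 19.2 CPM), CHRND (0.565 to 17.1) and CHRNG (0.157 to 24) and the transcription factor MEF2C (1.52 to 85.6) were higher as well.

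The defining factors of muscle had few or no counts: MYOD1 stood at 0.00687 and 0.0848 CPM and MYF5 at 0 on both days, both too rare to test. MYOG, a later factor of muscle differentiation, had no count at day 0 and stood at 0.517, 0.554, 0.628 and 0.415 CPM at day 3. On 95 counts in all at day 3, MYOG was called higher (7.43, SE 0.68, edgeR adjusted p 2.57e-06) and is among the 26. Among those that were lower, TPM1, a tropomyosin of many cells, went from 282 to 55 CPM, TNNT1, the troponin T of slow muscle, from 13.5 to 3.01, and NEB, nebulin, from 7.27 to 2.3. MYMX, MYH3, MYBPC2, CASQ1, MYH2 and CASQ2, also lower, had means below 3 CPM on both days.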
